A study of Mus musculus with 28 samples.

Results

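The first hour of the response of mouse dendritic cells to lipopolysaccharide (LPS) was examined by setting the LPS libraries of 1 h against the mock libraries of 1 h. The 4 libraries, 2 with LPS and 2 with mock, were taken by their labels from the 28 libraries of the series, and all 3147 genes of the deposited RNA table were compared. The series follows RNA through 12 h after stimulation, alongside protein labelling with heavy amino acids. Its 2 further libraries hold ribosome footprints of resting cells. Bone marrow of female C57BL/6J mice aged 6 to 8 weeks was grown in GM-CSF at 20 ng/ml, and the non-adherent and loosely bound cells were used on day 9. The LPS group received ultrapure rough E. coli K12 LPS at 100 ng/ml and the mock group received no stimulus. Both groups shared the GM-CSF culture and the exchange of medium-labelled for heavy-labelled amino acids at time 0. A 0 h group of 2 libraries gave the starting level. Separate mice or cultures are not named for replicates 1 and 2, so the p-values reflect how far these libraries lie apart, a spread that could be technical.

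LPS is the outer-membrane glycolipid of Gram-negative bacteria. It is handed by the co-receptor CD14 to the Toll-like receptor TLR4, whose MyD88 arm releases NF-kB and activates MAP kinases, while its TRIF arm activates IRF3 and starts interferon production. In dendritic cells this programme is known for a first wave of cytokine and transcription factor genes, a following wave of interferon-stimulated genes, and maturation towards antigen presentation.

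Levels are given in TPM, a length-corrected share of each library's transcripts, so that a TPM value can be compared between genes but only as a share of the listed genes. Median TPM lay between 70.5 and 77.2 in the 4 libraries and the 0 h pair, and 6 genes were listed at 0 in LPS replicate 2 against 0 to 3 in the others. Read depth cannot be recovered from TPM. Across genes, which are not independent replicates, log2 levels of the mock replicates correlated at r = 0.983 (Pearson), those of the LPS replicates at 0.932, and LPS replicate 2 with the mock replicates at 0.882 and 0.911. Dendritic cell markers were measured for 5 of 14 genes. Their TPM summed to 18700 and 11400 in mock and 20300 and 7440 in LPS, replicate 1 first here and below. Of these sums Cd74 alone held 9540 and 5050 in mock and 10500 and 3310 in LPS. Sums of 7 macrophage markers were higher in each of the 4 libraries, at 40000 and 34100 in mock and 36300 and 14300 in LPS. Most of them was Lyz2, at 37100 and 31900 in mock and 33700 and 13100 in LPS, so each comparison of sums rests largely on 1 gene. Sums of 7 neutrophil and precursor markers were 8370 and 3680 in mock and 8190 and 4910 in LPS. Of 17 lymphocyte and 11 mast cell and basophil markers none was among the listed genes, so their levels are not analysed here. LPS replicate 2 thus had lower dendritic cell and macrophage marker sums than the other 3 libraries of 1 h, and the part of this in the results was not tested. Among the libraries without LPS, 0 h replicate 2 was also low in the macrophage gene Lyz2, at 15600 TPM beside 55800 in 0 h replicate 1 and 13100 in LPS replicate 2. In RNA of a whole culture, fewer cells of a type and less RNA per cell cannot be told apart.

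Promoter sequences of the genes with the largest changes are shown first, so that the letters before their starts can be read beside their values. They are the last 120 bases before the RefSeq transcription start (GRCm38.p6), in lower case with matches to searched motifs in capitals. The motifs, searched on both strands of the 250 bases before the start, were kappaB (GGGNN followed directly by TTNCC, the NF-kB site), TGANTCA (AP-1), TGACGT (the CRE core of CREB and ATF factors), ISRE (GAAA, 2 free bases and GAAA, the site of interferon-regulated factors), GRE (GNACA, 3 free bases and TGTNC, the site of the glucocorticoid receptor) and the CArG box of serum response factor. Matches may overlap. TATAAA, searched in the last 60 bases on the plus strand, was added after the sequences had been seen. The first 5 lines belong to the 4 largest rises and the largest fall that had a RefSeq promoter.
Ptgs2, chr1:150099911-150100030, plus strand: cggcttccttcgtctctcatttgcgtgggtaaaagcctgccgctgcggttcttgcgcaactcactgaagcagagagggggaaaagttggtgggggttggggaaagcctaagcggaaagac
Il1b, chr2:129371140-129371259, minus strand: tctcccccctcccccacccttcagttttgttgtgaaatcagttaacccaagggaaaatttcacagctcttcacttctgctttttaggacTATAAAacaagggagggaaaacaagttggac
Il1a, chr2:129309973-129310092, minus strand: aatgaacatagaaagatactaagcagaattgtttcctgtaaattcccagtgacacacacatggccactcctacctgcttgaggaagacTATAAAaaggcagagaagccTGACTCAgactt
Irg1 (RefSeq name Acod1), chr14:103046892-103047011, plus strand: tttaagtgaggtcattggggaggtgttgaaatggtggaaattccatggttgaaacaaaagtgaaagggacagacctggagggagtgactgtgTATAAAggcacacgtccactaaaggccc
Tsc22d3 (the first of 3 listed promoters), chrX:140542669-140542788, minus strand: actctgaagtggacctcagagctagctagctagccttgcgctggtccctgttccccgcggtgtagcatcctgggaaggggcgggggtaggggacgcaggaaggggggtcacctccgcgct

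In these windows TATAAA began 31 bases before the start of Il1b, 32 before that of Il1a and 28 before that of Irg1. Il1a also held TGACTCA, an AP-1 match, 12 bases before its start. The windows of Ptgs2 and Tsc22d3 held 0 matches, which says only that these letters are not there. A further 4 windows, chosen after their values were seen, belong to interferon-stimulated genes and to the NF-kB gene Rel.
Isg15, chr4:156200819-156200938, minus strand: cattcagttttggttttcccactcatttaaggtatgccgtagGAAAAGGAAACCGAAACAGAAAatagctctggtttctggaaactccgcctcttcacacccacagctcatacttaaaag
Ifit1, chr19:34640769-34640888, plus strand: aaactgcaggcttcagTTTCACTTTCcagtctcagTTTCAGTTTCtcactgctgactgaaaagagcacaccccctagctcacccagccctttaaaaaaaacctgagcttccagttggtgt
Rsad2, chr12:26456453-26456572, minus strand: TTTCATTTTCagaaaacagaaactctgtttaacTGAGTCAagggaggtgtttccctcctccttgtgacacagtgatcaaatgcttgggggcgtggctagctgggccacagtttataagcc
Rel, chr11:23770970-23771089, minus strand: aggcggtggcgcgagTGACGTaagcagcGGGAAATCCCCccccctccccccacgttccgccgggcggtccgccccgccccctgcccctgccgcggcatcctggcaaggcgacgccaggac

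Isg15 held 3 overlapping ISRE matches, beginning 78, 72 and 66 bases before its start. Ifit1 held ISRE matches on the opposite strand at 104 and 85 bases, and Rsad2 held 1 at 120 bases beside an AP-1 match, TGAGTCA, at 87. In Rel, TGACGT at 105 bases was followed by 2 overlapping kappaB matches at 92 and 91. Over all searched bases, ISRE matches were in 9 of 82 promoters of genes that rose (11.0%), in 2 of 21 of genes that fell (9.52%), in 3.12% of the 2535 promoters of listed genes and in 3.04% of 27025 RefSeq promoters. The kappaB motif was in 7.32%, 9.52%, 4.73% and 4.0% of the same sets. AP-1 matches were in 8.54%, 4.76%, 4.69% and 6.87%, and the CRE core in 6.1%, 0.0%, 11.0% and 6.56%. CArG box and GRE matches were in 0 promoters of genes that rose or fell, against 1.22% and 0.0789% of the listed genes and 1.4% and 0.381% of RefSeq promoters. TATAAA was in 5 of 82 rises (Il1a, Il1b, Serpinb2, Irg1 and Irf4, 6.1%), in 0 of 21 falls, in 1.66% of listed genes and in 3.15% of RefSeq promoters. The windows of Il1a, Il1b and Irg1 had been read before TATAAA was added, which favours a high TATAAA share among rises. All these shares are descriptions of letters and carry no test.

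At 1 h, LPS cells held more RNA of the inflammatory genes Il1b, Il1a, Ptgs2 and Irg1, of the costimulatory receptor gene Cd40, and of antiviral genes such as Isg15 and Ifih1, and less RNA of Tsc22d3. In limma, fitted on log2(TPM + 1) over all 26 RNA libraries with Benjamini-Hochberg adjustment over 3147 genes, 103 genes rose (3.27%) and 25 fell (0.794%) at an adjusted p under 0.05. The direction was uneven in size as well as number. Of the rises, 80 were at least 2-fold and 31 at least 4-fold, while 15 falls were at least 2-fold and 1, Tsc22d3, at least 4-fold. The median log2 fold change was 1.53 over the rises, -1.04 over the falls and -0.05 over all genes. Genes that rose held 0.977% and 1.08% of all TPM in mock and 5.19% and 4.36% in LPS, of which Il1b was the most abundant single gene by mean level at 1 h. For none of the 128 genes (4.07%) did the LPS and mock libraries overlap. By comparison, 23.5% of all genes had both LPS libraries above both mock libraries and 25.3% had both below.

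The number of calls depended on the fit and on single libraries. With the replicate number as a block, 544 genes passed (17.3%), 352 higher (11.2%) and 192 lower (6.1%), the 128 among them. The replicate numbers were taken to pair libraries, but the fit reported here leaves the pairing out. A gene that did not pass in it may still pass with the block. Counts of called members in the gene lists below are read beside the 3.27% of all genes called higher and 0.794% called lower, and counts with the replicate block beside 11.2% and 6.1%. Without LPS replicate 1, 159 rose (5.05%) and 170 fell (5.4%). Without LPS replicate 2, 65 rose (2.07%) and 3 fell (0.0953%). The counts were 47 (1.49%) and 5 (0.159%) without mock replicate 1, and 71 (2.26%) and 5 (0.159%) without mock replicate 2. Quantile normalization gave 112 rises (3.56%) and 79 falls (2.51%). In all 4 of the fits that each left out 1 library, 41 rises and 2 falls, Tsc22d3 and Vhl, stayed called. Over the rises the median difference was 1.56 in replicate 1 and 1.42 in replicate 2 on the log2 scale. As no called gene had overlapping LPS and mock libraries, a positive difference in each pair follows from the calls themselves. The falls were larger in replicate 2 for 24 of 25 genes, at a median of -1.3 against -0.68 in replicate 1. This is the pair whose LPS library had the low marker sums, and the part of that in the falls was not tested.

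**Figure D1:**
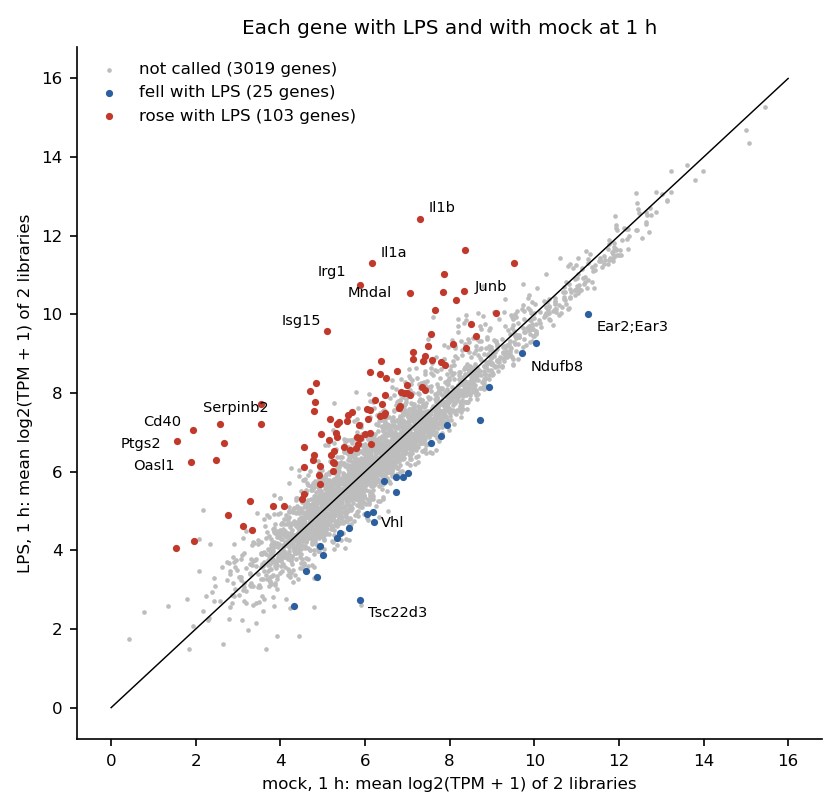
Each point is 1 of 3147 genes, at its mean log2(TPM + 1) over the 2 mock libraries (x axis) and over the 2 LPS libraries (y axis) of 1 h; red marks the 103 genes that rose, blue the 25 that fell, grey the rest, and the line marks equal levels. The rises reach farther from the line than the falls, with Tsc22d3 the farthest of the falls.

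Genes of the interleukin-1 system were among the highest. Il1b, the gene of the cytokine that causes fever, stood at 178 and 137 TPM in mock and at 7500 and 4100 TPM in LPS. The LPS libraries were both above the mock libraries, and the log2 fold change was 5.14 ± 0.6 (limma SE, n = 2 libraries a group, adjusted p = 3.2e-05). Il1a, which encodes the alarmin interleukin-1 alpha, stood at 59 and 85.8 TPM in mock and 3420 and 1880 TPM in LPS, a log2 fold change of 5.14 ± 0.66 (adjusted p = 9.2e-05). In both genes replicate 1 was the higher of the LPS libraries. Nlrp3, the sensor of the inflammasome that processes interleukin-1 beta, rose from 79 and 85.4 TPM to 518 and 395 TPM (2.45 ± 0.23, adjusted p = 3.1e-06). Il1f9, an interleukin-1 family cytokine also called IL-36 gamma, rose from 77 and 61.6 to 352 and 395 TPM (2.42 ± 0.38, adjusted p = 0.00081). These last 2 genes were chosen after their values were seen. Il1rn, the receptor antagonist of interleukin-1, stood at 299 and 283 TPM in mock and at 1390 and 634 TPM in LPS without passing (1.69 ± 0.5, adjusted p = 0.066), and passed with the replicate block (adjusted p = 9.1e-06). It too was chosen after its values were seen.

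Of 39 cytokine and chemokine genes named for the list, 5 were measured, and 2 rose (Il1a and Il1b), with a median log2 fold change of 1.69 beside -0.05 for all genes. With the replicate block 4 of the 5 passed as higher. Ccl6, a chemokine of myeloid cells and the most abundant member, stood at 13500 and 14900 TPM in mock and 12500 and 9500 TPM in LPS (-0.38 ± 0.24, adjusted p = 0.43). Tnf is not analysed here.

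Ptgs2, the inducible cyclooxygenase that makes prostaglandins, had the largest fold change. Its level was 3.22 and 1.07 TPM in mock and 219 and 53.1 TPM in LPS, a log2 fold change of 5.21 ± 1.05 (adjusted p = 0.0071). The groups did not overlap, although replicate 1 was the higher in each by about 3- to 4-fold. Without mock replicate 2 the adjusted p was 0.095, and with a pseudocount of 0.1 TPM it was 0.052. Ptgs2 was the 1 rise among 9 measured genes of prostaglandin and leukotriene synthesis, whose median was -0.14, and 1 member fell with the replicate block. Irg1, the mitochondrial enzyme that makes itaconate, stood at 56.2 and 59.1 TPM in mock and 2190 and 1360 TPM in LPS (4.88 ± 0.45, adjusted p = 3.1e-06). Serpinb2, a plasminogen activator inhibitor, rose from 4.31 and 5.59 TPM to 209 and 102 TPM (4.64 ± 0.71, adjusted p = 6e-04). It was the 1 rise among 7 measured genes of the wound and coagulation list, whose median was 0.94, and 3 of them rose with the replicate block.

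**Figure D2:**
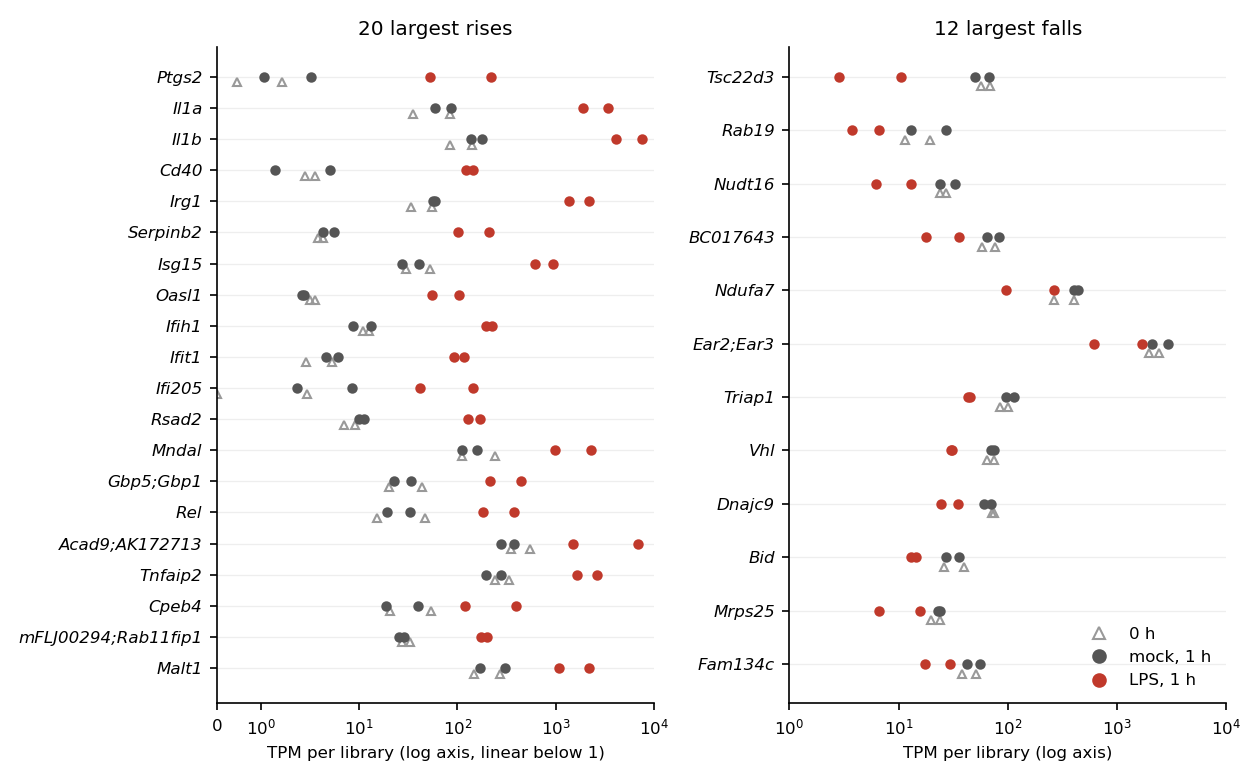
TPM in each library (log axis, linear below 1 in the left panel) for the 20 genes with the largest rises and the 12 with the largest falls at 1 h; red dots are the 2 LPS libraries, dark dots the 2 mock libraries and open triangles the 2 libraries of 0 h. In every row shown the red dots lie apart from the dark ones, and Il1b reaches 7500 TPM.

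Genes of LPS recognition gave 0 calls without the replicate block. Of 26 named genes of Toll-like receptor signalling, 12 were measured and 0 passed in limma in either direction, with a median of 0.26. With the replicate block, 4 passed as higher, and 2 once trends of level with transcript length and GC content were removed as well. Cd14, the co-receptor of LPS, stood at 273 and 138 TPM in mock and 1900 and 502 TPM in LPS (2.32 ± 0.84, adjusted p = 0.14). Each LPS library was above the mock library of its number, and the replicate block gave an adjusted p of 2.4e-06. Tlr2, the receptor of bacterial lipoproteins, stood at 223 and 164 TPM in mock and 743 and 251 TPM in LPS (1.17 ± 0.63, adjusted p = 0.35, and 0.0041 with the block). Tlr4 is not analysed here. MAP kinases and their phosphatases likewise had 0 calls among 11 measured genes, with a median of 0.05, and 1 rise with the block.

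NF-kB genes rose in part. Of 13 measured members, 4 rose and 0 fell, with a median of 0.62, and 8 rose with the replicate block. Rel, which encodes the subunit c-Rel and whose promoter holds the kappaB letters shown above, stood at 19.4 and 32.6 TPM in mock and 182 and 378 TPM in LPS (3.33 ± 0.7, adjusted p = 0.0097). Replicate 2 was the higher in each group, and the groups did not overlap. Nfkb1, the gene of the p105 precursor of p50, rose from 184 and 155 TPM to 551 and 433 TPM (1.52 ± 0.26, adjusted p = 0.0017). Tank, an adaptor that binds TRAF proteins and the kinase TBK1, rose from 52.9 and 80.4 TPM to 202 and 185 TPM (1.55 ± 0.35, adjusted p = 0.015). Relb, chosen after its value was seen, encodes the partner of p52 in the non-canonical pathway and rose from 78.1 and 88.2 TPM to 205 and 212 TPM (1.32 ± 0.17, adjusted p = 8e-05). Without LPS replicate 2 the adjusted p of Rel was 0.14 and that of Tank 0.077, and without mock replicate 1 they were 0.13 and 0.21. Nfkb2, the gene of the p52 precursor, stood at 83.8 and 70.8 TPM in mock and 226 and 134 TPM in LPS (1.17 ± 0.35, adjusted p = 0.07, and 9.9e-05 with the block). Malt1, the paracaspase that activates NF-kB downstream of CARD proteins, rose from 171 and 306 TPM to 1070 and 2190 TPM (2.74 ± 0.47, adjusted p = 0.0018), and its adjusted p without mock replicate 1 was 0.055. Tnfaip2, known as a gene induced by tumour necrosis factor, rose from 195 and 280 to 1650 and 2650 TPM (3.16 ± 0.37, adjusted p = 3.2e-05). Nfkbia and Tnfaip3 are not analysed here.

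Of 26 immediate early transcription factors named for the list, Junb alone was measured, and it rose. This AP-1 subunit stood at 343 and 305 TPM in mock and 1760 and 1350 TPM in LPS (2.25 ± 0.22, adjusted p = 5.4e-06), with the groups far apart. Irf4, a transcription factor of dendritic cells and lymphocytes, rose from 86.5 and 64.4 TPM to 257 and 199 TPM (1.59 ± 0.35, adjusted p = 0.014). Its adjusted p without mock replicate 2 was 0.15, and without LPS replicate 1 it was 0.05.

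Gene lists were chosen with earlier results of these data known, which bears on their shares of calls. Dendritic cell maturation genes gave the highest share of calls among the lists of more than 1 measured gene, with 6 of 7 measured genes up and a median of 1.71. The same number rose in each of the 4 fits that left out a library. Cd40, the receptor through which T cells license dendritic cells, stood at 5.06 and 1.4 TPM in mock and at 144 and 122 TPM in LPS (5.13 ± 0.42, adjusted p = 7.3e-07). The row of Icam1, the adhesion ligand of LFA-1, rose from 260 and 310 TPM to 1360 and 1300 TPM (2.22 ± 0.18, adjusted p = 5.3e-07). That row also carries the name of the histone gene H1f0, and its share in the values was not tested. Marcksl1, a protein that binds actin and calmodulin, rose from 229 and 176 TPM to 1490 and 823 TPM (2.46 ± 0.3, adjusted p = 5.2e-05). In these 3 genes every LPS library was more than 3-fold above every mock library.

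The other calls of the maturation list were smaller. Cd274, which encodes the T cell inhibitory ligand PD-L1, rose from 118 and 167 TPM to 352 and 608 TPM (1.71 ± 0.22, adjusted p = 0.00011), and was chosen after its value was seen. Stat5a, a transcription factor downstream of GM-CSF, rose from 28.3 and 25.2 TPM to 113 and 63.7 TPM (1.63 ± 0.3, adjusted p = 0.004). Fscn1, the actin-bundling protein fascin of mature dendritic cells, was the 1 measured member that did not pass, at 115 and 66.9 TPM in mock and 282 and 112 TPM in LPS (1.01 ± 0.6, adjusted p = 0.39). With the replicate block its adjusted p was 0.05, just under the threshold before rounding. MHC class II genes did not share this direction: 0 of 6 measured genes passed, and their median was -0.32. Their TPM summed to 26800 and 19300 in mock and to 26800 and 13200 in LPS. For 1 of the 6, both LPS libraries were below both mock libraries, beside 25.3% of all genes. Of 24 adhesion and actin genes, 3 rose, Marcksl1, Icam1 and Swap70, beside 3.27% of all genes, and 8 rose with the replicate block, beside 11.2%. Swap70, a guanine nucleotide exchange factor that acts on Rac, rose from 41 and 47.6 TPM to 104 and 91.5 TPM (1.13 ± 0.22, adjusted p = 0.0055, and 0.084 without mock replicate 1).

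Interferon-stimulated genes made up the longest run of named rises. Of 39 measured genes of the type I interferon list, 10 rose and 0 fell, with a median of 0.64. The count was 7 to 12 in the fits that left out a library, and 19 rose and 1 fell with the replicate block. Isg15, a ubiquitin-like modifier, stood at 40.8 and 27.3 TPM in mock and 939 and 612 TPM in LPS (4.46 ± 0.33, adjusted p = 2.5e-07). Ifih1, the cytosolic double-stranded RNA sensor MDA5, rose from 8.64 and 13.1 TPM to 225 and 196 TPM (4.18 ± 0.28, adjusted p = 8.4e-08). Ifit1, which binds viral RNA lacking host cap methylation, rose from 6.14 and 4.62 TPM to 117 and 92.9 TPM (4.05 ± 0.39, adjusted p = 4.1e-06). Rsad2, the antiviral enzyme viperin, rose from 9.97 and 11.2 TPM to 168 and 127 TPM (3.67 ± 0.55, adjusted p = 0.00044), and Oasl1, a member of the oligoadenylate synthetase-like family, from 2.78 and 2.62 TPM to 103 and 54.9 TPM (4.36 ± 0.5, adjusted p = 2.8e-05). The ISRE letters of Isg15, Ifit1 and Rsad2 are shown above.

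Ifit2, a relative of Ifit1, moved from 3.29 and 2.52 TPM to 16 and 19.8 TPM (2.27 ± 0.33, adjusted p = 0.00039). Parp14, a mono-ADP-ribosyltransferase, moved from 20.8 and 24.3 TPM to 101 and 94 TPM (2.07 ± 0.2, adjusted p = 3.6e-06). Oas3, an oligoadenylate synthetase, moved from 9.51 and 8.53 TPM to 21.4 and 22.2 TPM (1.19 ± 0.28, adjusted p = 0.023). In these 3 genes the replicates of a group lay close together. Ifi205 and Mndal, a gene of the same family that the list does not hold, had wider spread: Ifi205 stood at 2.34 and 8.37 TPM in mock and 42.1 and 145 TPM in LPS (3.83 ± 0.81, adjusted p = 0.011), and Mndal at 112 and 158 TPM and at 978 and 2310 TPM (3.49 ± 0.67, adjusted p = 0.0049). Genes of this family are similar in sequence, so reads may have been divided among them. Without LPS replicate 2 the adjusted p was 0.19 for Ifi205, 0.091 for Mndal and 0.14 for Oas3, and without mock replicate 1 it was 0.18, 0.069 and 0.12. Ifi205 had an adjusted p of 0.061 with a pseudocount of 0.1 TPM, and Oas3 of 0.16 without mock replicate 2. Not all members of the list had a higher level: 9 of the 39 had a negative log2 fold change, and 0 of these passed. The remaining call of the list was the row of Zc3hav1, the zinc-finger antiviral protein, at 34.7 and 37.2 TPM in mock and 71.8 and 98.6 TPM in LPS (1.21 ± 0.23, adjusted p = 0.0047, 0.088 without LPS replicate 2 and 0.063 without mock replicate 1). Of 8 measured interferon-inducible GTPases, the row Gbp5;Gbp1 alone rose, from 33.7 and 22.4 TPM to 441 and 213 TPM (3.43 ± 0.68, adjusted p = 0.0063, and 0.079 without mock replicate 2). The list's median was 0.31, and 2 of the 8 rose with the replicate block.

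**Figure D3:**
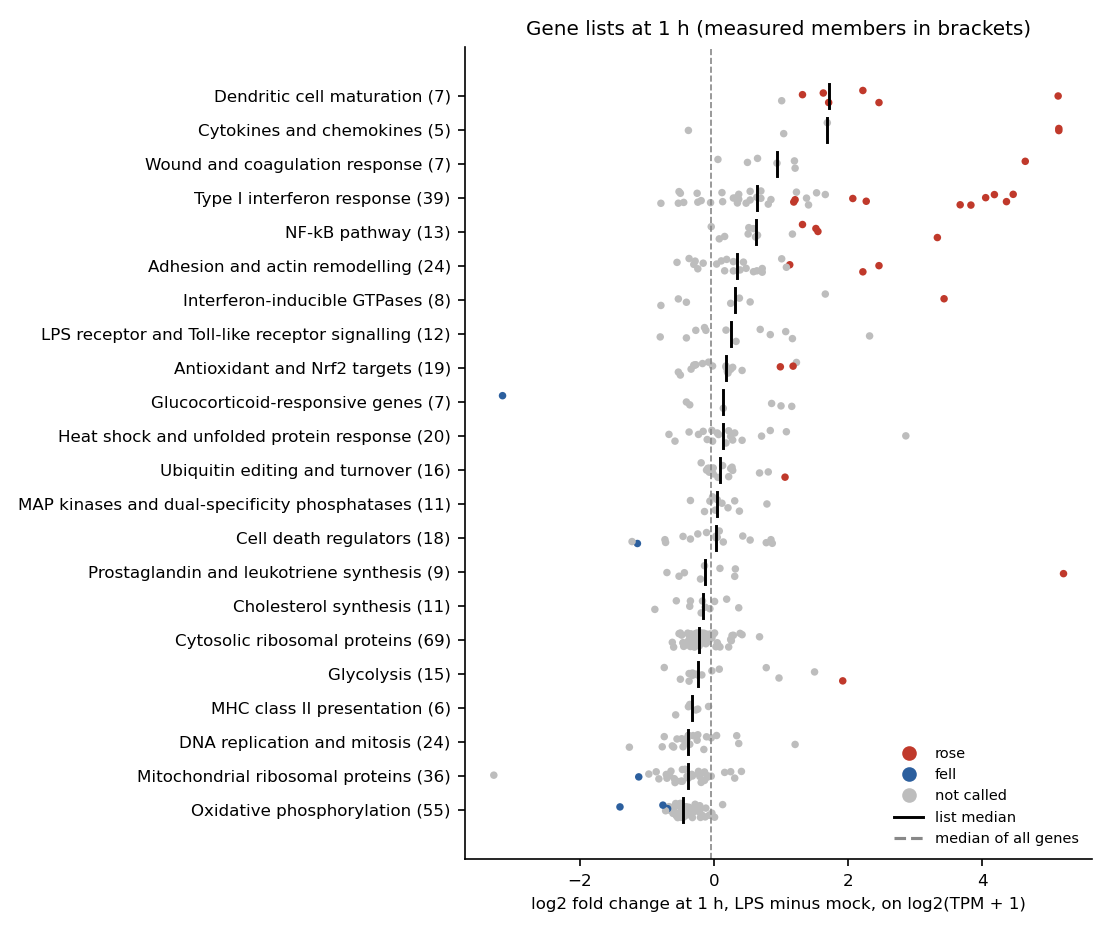
Log2 fold change at 1 h (x axis, LPS minus mock on the log2(TPM + 1) scale) of the measured members of each gene list (rows, number of members in brackets); red points rose, blue fell, grey did not pass, black bars are list medians and the dashed line is the median of all genes. Among the lists drawn, which leave out the list with 1 measured gene and the cell type marker lists, medians run from 1.71 for dendritic cell maturation to -0.46 for oxidative phosphorylation, beside -0.05 for all genes.

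Some of the 20 largest rises belong to none of the pathway lists, as do 73 of the 103 rises. The share of all genes outside the lists was not computed, so this count cannot be read against it. The row of Rab11fip1, a Rab11 effector in membrane recycling, had the smallest adjusted p of all, 5.4e-08, as it moved from 25.3 and 28.3 TPM to 174 and 199 TPM (2.75 ± 0.17). Cpeb4, which controls translation through poly(A) tails, moved from 18.6 and 39.3 TPM to 119 and 391 TPM (2.95 ± 0.66, adjusted p = 0.015). Its adjusted p was 0.26 without LPS replicate 2 and 0.21 without mock replicate 1. The row of Acad9, a mitochondrial protein needed to assemble complex I, stood at 379 and 280 TPM in mock and 6840 and 1500 TPM in LPS (3.3 ± 0.89, adjusted p = 0.049). The higher LPS library was more than 4-fold above the other, and the row was called in 1 of the 4 fits that left out a library, with adjusted p of 0.18 without LPS replicate 1, 0.19 without mock replicate 1 and 0.22 without mock replicate 2. C5ar1, the receptor of the complement fragment C5a, rose from 35.7 and 34.5 TPM to 176 and 147 TPM (2.16 ± 0.34, adjusted p = 0.00067). Metabolic genes were chosen after their values were seen where no list named them. Slc7a2, a transporter of arginine and lysine, rose from 64.4 and 103 TPM to 361 and 352 TPM (2.12 ± 0.26, adjusted p = 5.4e-05), and Acsl1, which activates long-chain fatty acids, from 36.8 and 58.2 TPM to 154 and 157 TPM (1.73 ± 0.24, adjusted p = 0.00024). Nampt, the rate-limiting enzyme of NAD salvage, rose from 57.4 and 75.2 TPM to 144 and 177 TPM (1.27 ± 0.19, adjusted p = 0.00051). All 3 stayed called without any 1 of the 4 libraries, and Nampt lost its call (adjusted p = 0.058) with trends of transcript length and GC content removed.

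Stress and metabolic lists had few calls. Among 15 measured glycolysis genes the hexose transporter gene Slc2a6 alone rose, from 158 and 123 TPM to 653 and 429 TPM (1.92 ± 0.44, adjusted p = 0.018), and the median was -0.24. Its adjusted p was 0.16 without mock replicate 2, 0.075 without mock replicate 1 and 0.071 without LPS replicate 1, and 3 members rose with the replicate block. Of 19 antioxidant genes 2 rose, with a median of 0.18, and with the replicate block 3 rose and 1 fell. Sod2, the mitochondrial manganese superoxide dismutase and a known NF-kB target, rose from 209 and 232 TPM to 506 and 382 TPM (0.99 ± 0.15, adjusted p = 0.00067). Sqstm1, the autophagy receptor p62, rose from 278 and 260 TPM to 668 and 556 TPM (1.18 ± 0.24, adjusted p = 0.0071, 0.056 without mock replicate 1 and 0.073 without mock replicate 2). In both genes the groups were clearly apart. Cbl, a ubiquitin ligase that marks receptors for degradation, was the 1 rise of 16 ubiquitin genes, at 14.1 and 17.8 TPM in mock and 32 and 36.5 TPM in LPS (1.06 ± 0.27, adjusted p = 0.036). It was lost without LPS replicate 2, where its adjusted p was 0.25, without mock replicate 1 (0.31) and without mock replicate 2 (0.09). In limma 0 of 20 heat shock and unfolded protein response genes and 0 of 11 cholesterol synthesis genes passed, with medians of 0.13 and -0.17. With the replicate block, 2 of the 20 heat shock genes rose and 1 fell, beside 11.2% and 6.1% of all genes.

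Tsc22d3, also known as GILZ, is induced by glucocorticoids and represses NF-kB and AP-1 activity, and it fell the most among the called genes. It stood at 49.9 and 67 TPM in mock and 10.4 and 2.87 TPM in LPS, a log2 fold change of -3.15 ± 0.4 (adjusted p = 8.7e-05). It was the 1 fall among 7 measured glucocorticoid-responsive genes, whose median was 0.14, and 3 of the 7 rose with the replicate block. Vhl, the ubiquitin ligase subunit that marks HIF for degradation, moved from 69.4 and 73.9 TPM to 30.4 and 30.5 TPM (-1.21 ± 0.17, adjusted p = 0.00035). Both genes were lower in both LPS libraries and were called in each fit that left out a library.

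Other falls rested more on single libraries, on LPS replicate 2 and on each of the mock libraries. Bid, which links death receptors to mitochondria, was the 1 fall of 18 cell death regulators, from 27.2 and 35.9 TPM to 14.3 and 13 TPM (-1.14 ± 0.29, adjusted p = 0.032). With the replicate block 2 cell death regulators rose and 1 fell. Dnajc9, a histone co-chaperone, moved from 69.9 and 60.9 TPM to 35 and 24.2 TPM (-1.14 ± 0.23, adjusted p = 0.0063), and Triap1, a mitochondrial carrier of phosphatidic acid, from 96.8 and 113 TPM to 45.1 and 42.7 TPM (-1.23 ± 0.26, adjusted p = 0.0097). Rab19, a small GTPase, moved from 13 and 27.1 TPM to 6.64 and 3.75 TPM (-1.72 ± 0.46, adjusted p = 0.043). The most abundant fall was the row of the eosinophil-associated ribonucleases Ear2 and Ear3, near-identical genes whose reads may have been shared, at 2950 and 2090 TPM in mock and 1700 and 615 TPM in LPS (-1.28 ± 0.35, adjusted p = 0.049). Without LPS replicate 2 the adjusted p was 0.21 for Bid, 0.12 for Dnajc9, 0.08 for Triap1, 0.39 for Rab19 and 0.67 for the Ear row. Without mock replicate 1 it was 0.08 for Bid, 0.094 for Dnajc9, 0.05 for Triap1 and 0.36 for the Ear row, and without mock replicate 2 it was 0.24 for Bid, 0.11 for Triap1, 0.33 for Rab19 and 0.09 for the Ear row. Most of the 25 falls lost their call without LPS replicate 2 and without either mock library, and most kept it without LPS replicate 1.

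Genes of mitochondrial respiration had low values as a list. Of 55 measured oxidative phosphorylation genes, 3 fell and 0 rose, 53 had a negative log2 fold change and the median was -0.46, against -0.05 for all genes. Both LPS libraries were below both mock libraries for 34 of the 55, beside 25.3% of all genes. Ndufa7, a complex I subunit, moved from 403 and 436 TPM to 262 and 95.4 TPM (-1.4 ± 0.35, adjusted p = 0.029). Its LPS replicate 2 was the lower of the pair by more than 2-fold. The other calls were complex I genes too: Ndufv2 at 238 and 250 TPM and at 154 and 134 TPM (-0.76 ± 0.17, adjusted p = 0.016), and Ndufb8 at 857 and 828 TPM and at 628 and 434 TPM (-0.69 ± 0.17, adjusted p = 0.031). The list's count was 16 falls with the replicate block, 9 without LPS replicate 1, 0 without each of the other libraries, 0 once the trends of transcript length and GC content were removed, and 1 with the block and the trends removed. With those trends removed the list's median was -0.16.

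Ribosomal and replication genes had negative medians and 1 call. Cytosolic ribosomal proteins had 0 calls in limma among 69 genes, with a median of -0.22, and 37 had both LPS libraries below both mock libraries, beside 25.3% of all genes. Of the 69 genes, 14 had a positive log2 fold change. TPM of the list summed to 210000 and 218000 in mock and to 185000 and 225000 in LPS. Rps28, a small-subunit protein chosen after its value was seen, had the lowest log2 fold change of the list. It stood at 6700 and 6610 TPM in mock and 5040 and 3740 TPM in LPS (-0.62 ± 0.18, adjusted p = 0.06, and 0.013 with the replicate block). With the trends of transcript length and GC content removed its log2 fold change was -0.25 (adjusted p = 0.46). The list's count was 6 falls with the block, beside 6.1% of all genes, and 2 rises and 1 fall with the block and the trends removed. Mitochondrial ribosomal proteins had 1 fall among 36, Mrps25, at 23.9 and 22.7 TPM in mock and 15.6 and 6.55 TPM in LPS (-1.12 ± 0.29, adjusted p = 0.041), with a list median of -0.39, 7 falls with the block and 3 with the block and the trends removed. The adjusted p of Mrps25 was 0.57 without LPS replicate 2, 0.24 without mock replicate 1 and 0.16 without mock replicate 2. The lowest log2 fold change of the mitochondrial list, -3.28, was that of a gene that did not pass. Replication and mitosis genes had 0 calls in limma among 24, a median of -0.38, and 1 rise and 5 falls with the block. Mcm2, a subunit of the replicative helicase chosen after its value was seen, stood at 46.7 and 40.4 TPM in mock and 26.9 and 23.2 TPM in LPS (-0.77 ± 0.23, adjusted p = 0.066, and 0.026 with the block).

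Transcript length moved with the change. Over 3123 genes with a length and GC content, the log2 fold change had a Spearman correlation across genes of 0.383 with transcript length and of -0.207 with GC content, a description with no p, since genes of a library are not independent replicates. In the replicate pairs taken alone the correlation with length was 0.399 and 0.315. The median transcript length was 2853 bases for rises, 1534 for falls and 2056 for all genes. With the trends removed within each library, 81 genes rose (2.59%) and 23 fell (0.736%), of which 73 and 12 were among the original calls. Besides Nampt, the genes described above that lost their call were Tank (adjusted p = 0.057), Swap70 (0.053), the Acad9 row (0.052), Bid (0.057), Rab19 (0.074), the Ear row (0.12), Mrps25 (0.052), Ndufv2 (0.066), Ndufa7 (0.13) and Ndufb8 (0.37). The part of transcript length in the falls was not tested.

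The mock libraries of 1 h were set against 0 h to look for changes after the exchange of medium without the stimulus. In limma 0 of 3147 genes differed between mock at 1 h and 0 h, 25 at an unadjusted p under 0.05 and 0 with the replicate block. In simulated data this comparison recovered 41.8% of 2-fold and 11.9% of 1.5-fold changes. The 0 calls therefore do not show that nothing moved. With 0 h as the reference in place of mock, 85 genes were higher with LPS at 1 h (2.7%) and 28 lower (0.89%). The comparisons with 0 h and with mock share the LPS libraries, so their values are set side by side. Of the 103 rises 77 also passed against 0 h, and of the 25 falls 14 did. Il1b stood 5.65 ± 0.6 above 0 h on the log2 scale and 5.14 ± 0.6 above mock, Ptgs2 5.8 ± 1.05 and 5.21 ± 1.05, and Cd40 5 ± 0.42 and 5.13 ± 0.42.

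The genes called at 1 h were then followed in the libraries of 2, 4, 6, 9 and 12 h, which entered the comparison at 1 h only through the shared estimate of spread. With the 1 h libraries fitted alone, 21 genes passed. Of the 103 rises, 73 were also higher at 2 h, and 64, 65, 64 and 64 at 4, 6, 9 and 12 h, beside 6.39%, 8.74%, 11.2%, 10.1% and 10% of all genes. Their median log2 fold change was 1.56, 1.38, 1.33, 1.27 and 1.23 at these times, where that of all genes was between -0.46 and -0.16. Of the 25 falls, 11, 15, 12, 12 and 9 were also lower, beside 8.04%, 29.2%, 30%, 30% and 26.8% of all genes. At the later times a call for lower was thus common among all genes. The LPS effect of 41 rises was at its highest at 1 h itself. The rises were picked for their effect at 1 h, which favours a high value at that time. The share over all genes was not computed.

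At every later time 52 rises were called higher, with medians of 1.83 at 1 h and 2.4 at 12 h, among them Il1a, Il1b, Ptgs2, Irg1, Cd40, Isg15, Nfkb1 and Relb. Of these 52, 32 were called in all 4 fits that left out a library, and 23 belonged to a pathway list. At no later time were 22 rises called higher, with medians of 1.17 at 1 h and -0.34 at 12 h. Of the 22, 1, Irgq, was called in all 4 such fits, and 1 belonged to a pathway list. The share of all genes in a pathway list was not computed. Irgq, an IRG family protein, had a log2 fold change of 1.97 at 1 h and 0.17 at 2 h. Others of the 22 were Irf4, at 0.46 at 2 h and -0.91 at 4 h, Cbl, at -0.07 and -0.59, Crot, a peroxisomal carnitine acyltransferase, at 0.14 and -0.71, and the Acad9 row, at 0.33 and -0.2. The genes in between included Serpinb2, at 6.11 at 2 h, 3.34 at 6 h and 0.83 at 12 h, and the Icam1 row, at 1.55 at 2 h and 0.36 at 4 h.

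**Figure D4:**
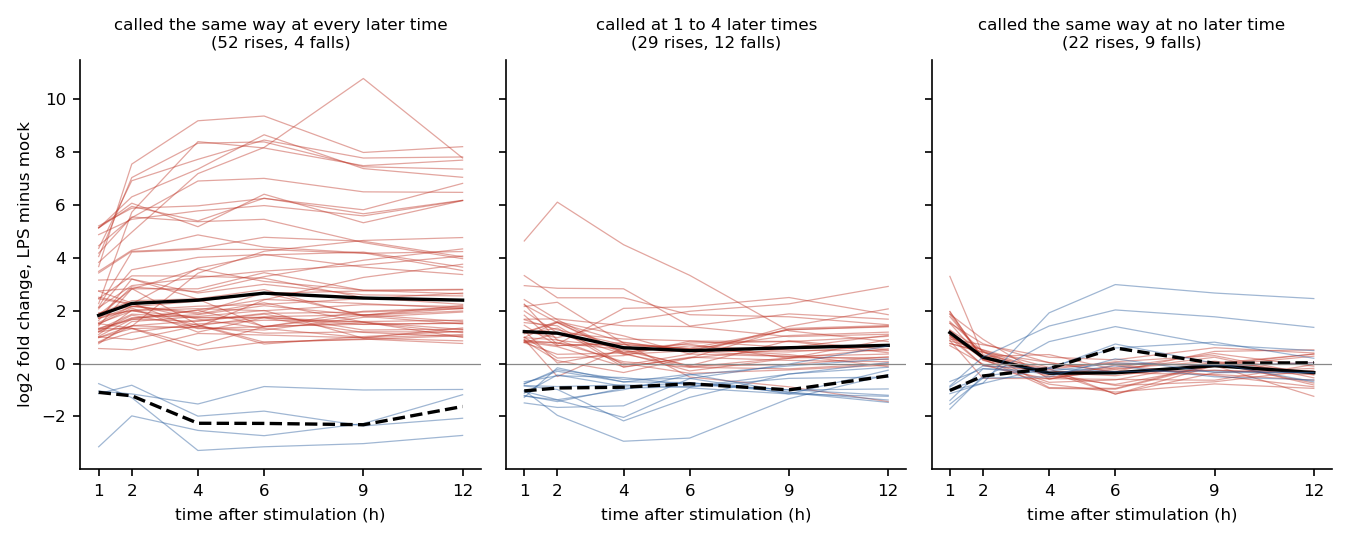
Log2 fold change of LPS against mock (y axis) at each time in hours (x axis) for the genes called at 1 h, 1 line a gene, red for rises and blue for falls, split by whether they were called the same way at every later time, at some or at none; the solid black line is the median of the rises and the dashed line that of the falls. The 22 rises of the right panel run from -0.56 to 0.92 at 2 h (median 0.24) and from -1.24 to 0.52 at 12 h (median -0.34), while the 52 of the left panel have a median of 2.4 at 12 h.

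Whether an effect changed after 1 h was tested in the same limma fit as the difference of 2 LPS effects, which shares the 1 h libraries with the comparison above. Genes called at 1 h were picked on values of those libraries, which favours effects that shrink later. Between 1 h and 2 h the effect changed for 37 genes (1.18%), of which 5 were rises whose effect grew and 3 were rises whose effect shrank. The effect grew for 4 antiviral genes: Ifit2 by 3.45 ± 0.47 on the log2 scale (adjusted p = 0.0011), Rsad2 by 3.88 ± 0.77 (0.016), Ifit1 by 2.98 ± 0.55 (0.012) and Parp14 by 1.48 ± 0.28 (0.012). The differences of Isg15 (adjusted p = 0.38), Ifih1 (0.13), Oasl1 (0.11), Oas3 (0.86) and Ifi205 (0.76) did not pass. Without LPS replicate 2 the adjusted p of these differences was 0.082 for Rsad2, 0.054 for Ifit1 and 0.054 for Parp14. Without mock replicate 1 it was 0.06 for Rsad2 and 0.06 for Ifit1, and without mock replicate 2 it was 0.084 for Rsad2 and 0.084 for Parp14. Rsad2 reached a log2 fold change of 7.55 at 2 h and 9.19 at 4 h. Junb went the other way, from 2.25 at 1 h to 0.88 at 2 h, a difference of -1.37 ± 0.32 (adjusted p = 0.045). The adjusted p of Junb was 0.066 with median-ratio rescaling and between 0.054 and 0.17 without any 1 of the 4 libraries of 1 h. Between 1 h and 12 h the effect changed for 510 genes (16.2%), with 21 rises growing and 27 shrinking. C5ar1 turned from 2.16 at 1 h to -1.44 at 12 h, a difference of -3.61 ± 0.48 (adjusted p = 8.4e-05), and Serpinb2 from 4.64 to 0.83, a difference of -3.81 ± 1.01 (0.016, and 0.056 without LPS replicate 1 or mock replicate 1). Among the falls, 8 effects became higher by 12 h and 1 lower. 1600014C10Rik, a gene of unassigned function, stood at 39 and 40.5 TPM in mock and 22.4 and 16.1 TPM in LPS at 1 h (-1.02 ± 0.26, adjusted p = 0.036, and between 0.17 and 0.36 without LPS replicate 2 or either mock library), and at 2.46 ± 0.26 above mock at 12 h on the log2 scale.

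**Figure D5:**
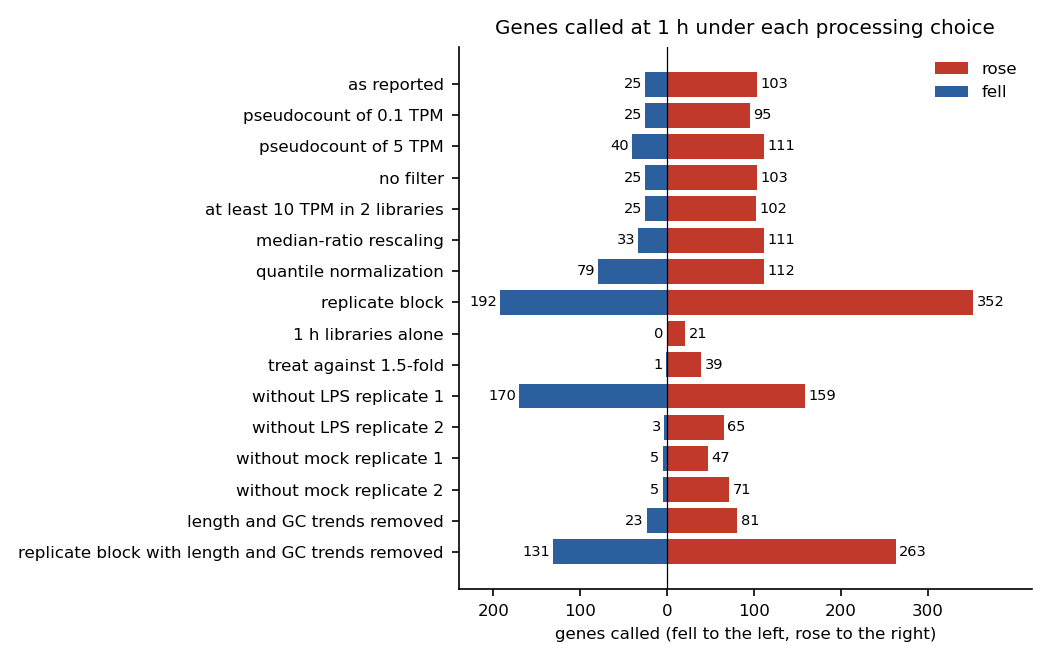
Number of genes called at 1 h under each processing choice (rows), with rises to the right and falls to the left of 0. Rises run from 21 with the 1 h libraries fitted alone to 352 with the replicate block, and falls from 0 to 192 in those fits.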

How the data were processed

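Strand-specific poly(A) RNA-seq was analysed from 26 RNA libraries in 13 groups of 2. TPM values were deposited by the authors and, per the submitters' processing notes, Bowtie 0.12.7, RSEM 1.2.3 and mm9 were used. The values of each library add up to the same total over 3147 rows, and read depth is unknown. The 0 h columns of both arms hold identical values and were used once. A row can join several names, as 363 do, 48 of them naming several genes. Ribosome footprint values deposited by the authors, whose unit was taken as TPM from the values, were read only for which genes they list. They list 84 of the 103 rises (81.6%) and 18 of the 25 falls (72%), beside 87% of all genes.

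Values were fitted as log2(TPM + 1) in limma 3.58.1 (R 4.3.3) with a mean per group, a variance trend and 13 residual degrees of freedom. Genes needed 1 TPM in 2 libraries, which kept all 3147. Adding 1 understates the change of low genes. SE are limma's and p-values are Benjamini-Hochberg adjusted over all genes tested. The replicate number was not in the fit, so differences between the replicate numbers stayed in the spread used by its tests. Differences of same-numbered LPS and mock libraries from their group means correlated at 0.508, 0.679, 0.227, 0.648, 0.685 and 0.526 at 1, 2, 4, 6, 9 and 12 h, so the numbers were taken to pair libraries, and the blocked value is given beside the named genes and list counts it moved. The code was tested on simulated data.

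Named genes are the 20 largest rises and 12 largest falls among calls whose LPS and mock libraries of 1 h did not overlap. Also named are up to 3 calls of each list and, where the sign held under all scalings, its most abundant gene. A set of known LPS genes and the calls whose effect changed most later complete them. Genes outside this are marked. A withheld item is not reported here. Members and lists were chosen with earlier results of these data known. Motifs were searched in 1 RefSeq promoter a gene with Python 3.11.15. The alternatives were other pseudocounts, filters, scalings and designs, each 1 h library left out, and, chosen after seeing the data, removal of length and GC trends.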

Additional observations from a re-analysis of the deposited data

Results flagged for a closer look

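Differences between the LPS effect at a later time and the effect at 1 h are singled out here where limma's test of that difference passed (adjusted p under 0.05); values are on the log2 scale, and all genes named were called at 1 h. The difference passed for 37 genes from 1 h to 2 h and for 510 from 1 h to 12 h.

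From 1 h to 2 h the effect grew for Ifit1 (2.98), Rsad2 (3.88), Ifit2 (3.45), Parp14 (1.48) and BC006779 (2.08), and shrank for Junb (-1.37), Srgap2 (-1.41) and the polyadenylation scaffold gene Sympk (-1.43). Of these 8, Ifit2 alone kept its call in each fit that left out a library of 1 h; without LPS replicate 2 the adjusted p was 0.19 for BC006779, 0.18 for Srgap2 and 0.11 for Sympk. With median-ratio rescaling Srgap2 (0.092) and Sympk (0.051) lost it as well.

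From 1 h to 12 h the effect grew for Ifit2 (5.42), Rsad2 (4.54), Ifi205 (3.95), Oas3 (3.58), Oasl1 (3.46) and 1600014C10Rik (3.48). It shrank for the Acad9 row (-4.54), Serpinb2 (-3.81), C5ar1 (-3.61), the row Heatr7a;AK211096 (-2.75), the cytochrome b5 reductase gene Cyb5r4 (-2.7), Crot (-2.69) and the Icam1 row (-1.99). Without LPS replicate 1 the adjusted p was 0.099 for Ifi205, 0.085 for the Acad9 row, 0.056 for Serpinb2 and 0.088 for Cyb5r4, and Ifi205 had 0.13 with a pseudocount of 0.1 TPM. Leaving out mock replicate 2 gave 0.12 for Ifi205, 0.072 for the Acad9 row and 0.078 for Cyb5r4. The other 9 differences to 12 h kept their call without any 1 library of 1 h.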

How the results depend on the processing

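The direction of each gene given with a test at 1 h was the same under every alternative run. For the most abundant gene of a list this was partly set by the naming rule, which asked that the sign hold under all scalings. With the replicate block, which pairs libraries by number, 544 genes changed at 1 h (352 higher, 192 lower); with the block and length and GC trends removed, 394 (263 and 131); with the 1 h libraries alone, 21 (21 and 0); and against a 1.5-fold minimum (treat), 40 (39 and 1). Falls numbered 40 with a pseudocount of 5 TPM and 79 with quantile normalization. Leaving out 1 library gave 52 to 329 changed genes, 47 to 159 rises and 3 to 170 falls. For mock against 0 h it gave 0 to 1 genes, 1 without 0 h replicate 1. For LPS at 1 h against 0 h the block gave 332, the block with trends removed 338, and leaving out a library 69 to 243. For the change of the effect from 1 h to 2 h these were 155, 152 and 17 to 87, and to 12 h 1140, 1175 and 335 to 515. The cause was not tested. Beyond the genes whose blocked value is given beside them, the block changed no call of a named gene. TPM keeps no read depth, so counting error behind low levels is unknown, and 2 libraries a group limit what the fit can call.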

Other observations

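Calls outside the naming rule, picked after their values were seen, include genes of signalling and immune function that are in none of the pathway lists. Slfn2, a Schlafen gene of leukocyte quiescence, rose from 634 and 839 TPM to 2070 and 3100 TPM (log2 fold change 1.8 ± 0.29, limma adjusted p = 0.00094), and Ehd1, which acts in endosomal recycling, from 178 and 177 TPM to 644 and 530 TPM (1.71 ± 0.16, adjusted p = 3.1e-06). Lcp2, the adaptor SLP-76, rose from 107 and 124 TPM to 257 and 261 TPM (1.16 ± 0.17, adjusted p = 0.00044). Syk, the kinase of immunoreceptor signalling, rose from 146 and 180 TPM to 278 and 287 TPM (0.8 ± 0.18, adjusted p = 0.017), and Ncf1, the p47 subunit of the phagocyte NADPH oxidase, from 378 and 415 TPM to 736 and 665 TPM (0.82 ± 0.18, adjusted p = 0.014). The LPS and mock libraries did not overlap for these 5 genes, of which Slfn2, Ehd1 and Lcp2 stayed called in all 4 fits that left out a library. Without mock replicate 1 the adjusted p was 0.24 for Syk and 0.16 for Ncf1; it was 0.12 for Syk without LPS replicate 2 and 0.054 for Ncf1 without mock replicate 2.

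Among the falls, Dok2, an adaptor that restrains receptor signalling in myeloid cells, moved from 494 and 472 TPM to 328 and 247 TPM at 1 h (-0.76 ± 0.19, adjusted p = 0.028) and stood at a log2 fold change of -3.29 at 4 h. Tbc1d13, a Rab GTPase-activating protein, moved from 92.1 and 119 TPM to 61.5 and 53.9 TPM at 1 h (-0.85 ± 0.22, adjusted p = 0.032) and stood at 2.03 at 6 h and 1.37 at 12 h. Without LPS replicate 2, mock replicate 1 and mock replicate 2 in turn, the adjusted p at 1 h was 0.33, 0.2 and 0.13 for Dok2 and 0.25, 0.064 and 0.26 for Tbc1d13.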
